A study of Mus musculus with 4 samples.

Results

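Plk4 and 9 other genes of centriole duplication were followed in messenger RNA from 4 samples, each on 1 single-colour Affymetrix mouse array. The members were Plk4, Plk1, Plk2, Stil, Sass6, Cenpj, Cep63, Cep135, Cep152 and Cep192, and every probe set that the platform annotation gives to exactly 1 of these symbols was taken. This rule found 16 probe sets among the 45037 that are not controls. The cells were bronchoalveolar stem cells (BASCs) sorted from the lungs of ICR mice aged 4 to 6 weeks, as cells without CD31 and CD45 and with CD34 and Sca-1, and plated on irradiated mouse embryonic fibroblasts, with collagen-coated dishes also named for later passages. The labels give 2 arrays of control cells and 2 arrays of Myc-depleted cells. The study depleted c-Myc with a short hairpin RNA from a lentivirus and made stable lines under puromycin. It does not state that the arrays used these lines, and it calls the array comparison group wild type. The labels name neither the hairpin nor any control virus on these arrays, so infection and selection cannot be told apart from depletion. Separate cultures, infections or extracts are not named either, so the p-values rest on a spread between arrays that may be purely technical.

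Centrioles are the microtubule cylinders at the core of the centrosome, and they are duplicated in step with the cell cycle. The kinase Plk4 starts this process on the wall of the old centriole, where the scaffold proteins Cep152 and Cep192 recruit it and Cep63 holds Cep152 in place. Stil then binds Plk4 and brings in Sass6, which forms the hub of the cartwheel from which a new centriole grows, while Cep135 and Cenpj join the cartwheel to its microtubules. Many of these genes are transcribed mainly in dividing cells, and Plk1 and Plk2 are kinases of the same family with roles in mitosis and at the entry into DNA synthesis. Multiciliated cells of the airway use the same machinery to make many centrioles.

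All values are deposited log2 expression values of single probe sets, and a difference is always the Myc-depleted mean less the control mean, so that -1 is a halving. A level is compared between arrays only within its probe set. A probe set was tested when its mean over the arrays reached log2 5.08, the 40th percentile, which left 27022 of them, and it counted as called where limma gave it a p under 0.05 after Benjamini-Hochberg adjustment. Of the 16 member probe sets 14 were tested, and they cover 9 of the 10 genes. Myc itself stood at 9.21 and 9.69 on the control arrays and at 8.35 and 8.50 on the Myc-depleted arrays. The difference of -1.02 (SE 0.21) amounts to 49.2% of control (limma adjusted p = 0.363), so the targeted gene was lower on both arrays but was not called. No probe set was called in limma on these arrays.

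The arrays of a group differed in their labelling controls. The mean difference between the 3′ and 5′ probe sets of the poly-A spike-ins, which are added before labelling and show how far labelling ran along a transcript, was 2.15 and 2.05 on control 1 and Myc-depleted 2 and 3.24 and 3.62 on control 2 and Myc-depleted 1. For Gapdh the same difference was -0.13 and -0.11 on control 1 and Myc-depleted 2 and 0.31 and 0.87 on control 2 and Myc-depleted 1. For Actb it was 0.60 and 0.69 against 1.36 and 1.95. The main results are therefore also given between control 1 and Myc-depleted 2, called the low pair, and between control 2 and Myc-depleted 1, called the high pair. The high pair is not well matched, as Myc-depleted 1 lay above control 2 in the spike-ins, Gapdh and Actb. Of the markers of the sort and of lung epithelium, Cd34, Cdh1, Krt8, Krt18, Nkx2-1 and the alveolar and club cell genes Sftpc and Scgb1a1 (4.35 to 4.75) were under the low-value threshold. Epcam was the 1 tested gene of 8 with a probe set. It read 6.89 and 7.12 on control and 7.80 and 7.52 on Myc-depleted arrays by 1447899_x_at. That suffix means that its probes may also match transcripts of other genes, and the other Epcam probe set was not tested. All 8 fibroblast and feeder markers were tested, with log2 levels summing to 88.8 and 89.8 on control and 90.8 and 88.6 on Myc-depleted arrays. Most were bright, with control means of 14.5 for Vim and Col1a2, 13.2 for Col3a1 and 13.1 for Col1a1. Those of Pdgfrb and Pdgfra were 12.4 and 10.3, while Thy1 and Dcn were dim at 5.97 and 5.38. These levels are a description, as different probe sets are not compared. The near-equal sums cover opposite differences, with Pdgfra at 1.23, Dcn at 0.67 and Pdgfrb at 0.44 but Thy1 at -1.26, each without overlap. Thy1 lay at 4.68 and 4.75 on the Myc-depleted arrays, under the threshold, and was tested only through its control level. In RNA, the sort and epithelial markers other than Epcam therefore do not bear out the labelled cell type, whereas the collagen genes and Vim were bright. The study reported SP-C and CCA protein by immunostaining in most colonies after several passages, which these arrays do not measure. Ly6a, the gene of the sort marker Sca-1, had no probe set under its symbol alone. The part of feeder cells in the results was not tested. In bulk RNA, fewer cells of a type and less RNA per cell cannot be told apart.

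**Figure D1:**
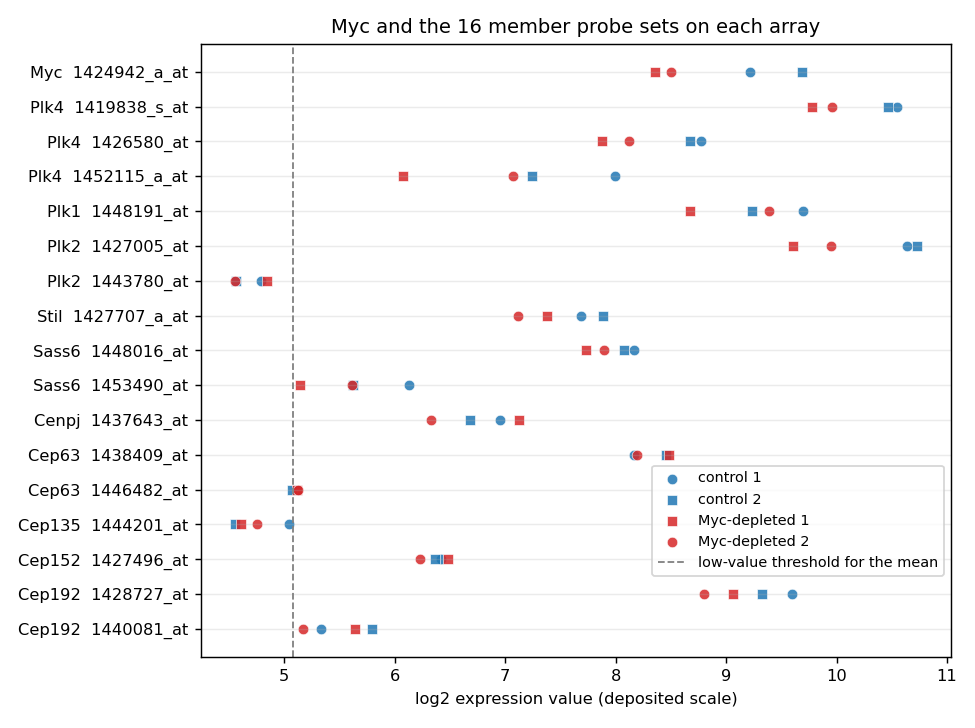
Log2 expression value (horizontal axis) of Myc and of the 16 member probe sets on each of the 4 arrays, control in blue and Myc-depleted in red, with squares for the arrays with high spike-in values and a dashed line at log2 5.08, below which a mean was not tested. For the leading Plk4 probe set the Myc-depleted arrays lie at 9.78 and 9.96, below both control arrays at 10.5, whereas the points of Cep63 and Cep152 are mixed.

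Plk4 messenger RNA was lower on both Myc-depleted arrays than on both control arrays for each of its 3 probe sets. The brightest, 1419838_s_at, whose suffix means that its probes may also match transcripts of another gene, read 10.5 and 10.5 on the control arrays and 9.78 and 9.96 on the Myc-depleted arrays. The difference was -0.64 (SE 0.13, 95% interval -0.999 to -0.28), or 64.2% of the control level. It was larger than the spread within a group, where the SD was 0.06 in control and 0.13 in Myc-depleted cells, but was not called (limma adjusted p = 0.363, before adjustment 0.00768). The study picked Plk4 for follow-up from these same arrays, as a predicted microRNA target, so its direction here is no independent evidence. The study also reported a significant decrease of Plk4 by real-time PCR, an assay that these arrays do not hold. Among the 12589 genes tested, 2.49% were as low or lower by their leading probe set.

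The other probe sets of Plk4 gave like or larger differences with more spread. Probe set 1426580_at read 8.78 and 8.67 in control and 7.88 and 8.12 in Myc-depleted cells. Its difference was -0.72 (SE 0.14, limma adjusted p = 0.358). Probe set 1452115_a_at, which matches alternative transcripts of the gene, read 7.99 and 7.25 in control and 6.08 and 7.07 in Myc-depleted cells. It gave the largest difference of any member probe set, -1.05 (SE 0.45), or 2.07-fold, but its groups almost touched, at 7.25 and 7.07, and its interval ran from -2.30 to 0.20. Leaving out 1 array gave -1.54 to -0.55. The difference no longer exceeded that of Plk2 without Myc-depleted replicate 1 (-0.55 against -0.74) or without control replicate 1 (-0.67 against -0.95). Both 1426580_at and 1452115_a_at list the same source sequence. The array with high spike-in values was lower than its partner by 0.75 in control and by 0.99 in Myc-depleted cells for 1452115_a_at, against 0.08 and 0.18 for 1419838_s_at. Within the low and the high pair the difference of 1452115_a_at was -0.93 and -1.17, and that of 1419838_s_at was -0.59 and -0.69. As the groups did not overlap for any Plk4 probe set, both pairs had to be negative, so their sign adds no support.

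The promoters of the members with the clearest differences, Plk4, Plk2 and Stil, are printed here with that of Cep63, whose level differed little. Cep63 alone among the members searched held the E-box that Myc and Max bind. Each is the 250 bases before the annotated start, from RefSeq on GRCm38.p6, written 5′ to 3′ along the gene. Capitals mark matches on either strand to the E-box CACGTG, the CCAAT box bound by NF-Y, the CHR element TTTGAA of genes transcribed in G2 and M phase, or the E2F core TTTNNCGC.

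Plk4, chr3:40799701-40799950, plus strand: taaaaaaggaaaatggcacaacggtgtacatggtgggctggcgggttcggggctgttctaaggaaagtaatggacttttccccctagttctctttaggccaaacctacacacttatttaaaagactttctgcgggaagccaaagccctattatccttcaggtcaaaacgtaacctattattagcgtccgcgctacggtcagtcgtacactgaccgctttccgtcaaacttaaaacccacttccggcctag

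Plk2, chr13:110394794-110395043, plus strand: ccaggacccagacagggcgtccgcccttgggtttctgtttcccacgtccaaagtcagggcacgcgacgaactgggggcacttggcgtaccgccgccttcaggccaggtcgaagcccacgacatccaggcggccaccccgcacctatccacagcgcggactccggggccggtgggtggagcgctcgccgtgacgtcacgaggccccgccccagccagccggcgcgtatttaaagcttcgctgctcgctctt

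Stil, chr4:114999868-115000117, plus strand: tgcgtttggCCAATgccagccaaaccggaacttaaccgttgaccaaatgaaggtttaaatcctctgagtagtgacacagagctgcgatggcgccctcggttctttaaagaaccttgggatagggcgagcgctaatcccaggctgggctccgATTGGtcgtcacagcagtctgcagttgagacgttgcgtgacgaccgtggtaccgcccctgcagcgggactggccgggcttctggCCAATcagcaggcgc

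Cep63, chr9:102626125-102626374, minus strand: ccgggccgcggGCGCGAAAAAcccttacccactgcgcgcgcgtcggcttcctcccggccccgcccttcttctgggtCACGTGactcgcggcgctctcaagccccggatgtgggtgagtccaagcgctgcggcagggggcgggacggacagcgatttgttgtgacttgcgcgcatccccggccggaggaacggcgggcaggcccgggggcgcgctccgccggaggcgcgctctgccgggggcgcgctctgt

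The window searched was 250 bases before and 50 after the start. Promoters on 1 whole chromosome were left out of the search, for members and for all genes alike. Those searched covered 9 of the 10 members, without Cep192. The E-box was found in 1 of the 9, Cep63, at 174 bases before the start, and in 8.09% of the 27025 genes searched. Plk4 and Plk2, whose levels differed most, held none of the 4 motifs in this window. Stil held 3 CCAAT boxes, and Cep135, Cep152 and Plk1 also held at least 1, so that 4 of 9 members had it against 41.1% of all genes. The CHR element was found in Plk1, 31 bases after the start, and in Sass6, against 20.2% of all genes. The E2F core was found in Cep152 and Cep63, against 5.93% of all genes, and the matches in Cep63 overlap each other. These letters are no evidence of binding, and their absence from this window says nothing of the factor.

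Plk2, a kinase induced by serum and by stress, had the largest difference among the members by leading probe sets. Probe set 1427005_at read 10.6 and 10.7 on the control arrays and 9.61 and 9.95 on the Myc-depleted arrays, with no overlap. The difference was -0.91 (SE 0.16, 95% interval -1.36 to -0.45), or 53.3% of control (limma adjusted p = 0.341). It was -0.69 in the low pair and -1.12 in the high pair. A second probe set, 1443780_at, lay below the low-value threshold at 4.56 to 4.85 and was not tested. Of all genes tested, 1.02% were as low as Plk2 or lower.

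Plk1, the kinase that drives centrosome maturation and entry into mitosis, was lower on average but its groups overlapped. It read 9.70 and 9.23 in control and 8.67 and 9.38 in Myc-depleted cells, so Myc-depleted 2 lay above control 2. The difference of -0.44 (SE 0.32, 95% interval -1.32 to 0.45) was smaller than the Myc-depleted spread (SD 0.50), with limma adjusted p = 0.726. Within the pairs it was -0.32 and -0.56, and without 1 array each it ran from -0.79 (without Myc-depleted replicate 2) to -0.08 (without Myc-depleted replicate 1). The remaining kinases of the family, Plk3 and Plk5, were dim, with differences of -0.18 and 0.18 and adjusted p = 0.804 and 0.682 in limma.

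Of the cartwheel genes, Stil and Sass6 were lower on both Myc-depleted arrays and Cenpj was not. Stil, the activator of Plk4, read 7.68 and 7.89 in control and 7.38 and 7.12 in Myc-depleted cells. Its difference of -0.54 (SE 0.16, 95% interval -0.98 to -0.10) put it at 69.0% of control (limma adjusted p = 0.440, before adjustment 0.0278), and stood at -0.56 and -0.51 in the low and high pair. Sass6, the hub protein, read 8.16 and 8.08 in control and 7.73 and 7.90 in Myc-depleted cells by probe set 1448016_at. Its difference of -0.31 (SE 0.13) was the smallest among the members' leading probe sets with groups that did not overlap, and its interval of -0.66 to 0.05 included 0. The dimmer Sass6 probe set, 1453490_at, read 6.13 and 5.63 against 5.14 and 5.61, a difference of -0.50 (SE 0.27), with control 2 and Myc-depleted 2 only 0.01 apart. It ran from -0.75 without control replicate 2 to -0.25 without control replicate 1.

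Cenpj, which sets the length of the new centriole, showed opposite differences in the pairs. It read 6.95 and 6.68 in control and 7.13 and 6.33 in Myc-depleted cells, so that the Myc-depleted arrays were the highest and the lowest. Its mean difference was -0.08 (95% interval -0.96 to 0.80), made of -0.62 in the low pair and 0.45 in the high pair. An interval this wide leaves a large change in either direction possible. Cep135, which links the cartwheel to the microtubules, was read by 1 probe set with levels between 4.55 and 5.04, under the threshold, and was not tested.

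The scaffold genes were divided. Cep192, which recruits Plk4 and builds the mitotic centrosome, read 9.59 and 9.32 in control and 9.06 and 8.80 in Myc-depleted cells by 1428727_at. The difference was -0.53 (SE 0.17, 95% interval -1.004 to -0.05), or 69.4% of control (limma adjusted p = 0.464, before adjustment 0.0378). It was -0.80 in the low pair and -0.26 in the high pair. The dimmer Cep192 probe set, 1440081_at, differed by -0.16 with overlapping groups (5.34 and 5.80 against 5.64 and 5.17).

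Cep152 and Cep63, which form the ring that holds Plk4, showed little difference. Cep152 read 6.42 and 6.37 in control and 6.48 and 6.23 in Myc-depleted cells, a difference of -0.04 (95% interval -0.43 to 0.36). Cep63 read 8.17 and 8.45 in control and 8.48 and 8.19 in Myc-depleted cells by 1438409_at, a difference of 0.03 (95% interval -0.47 to 0.53). Its other probe set, 1446482_at, lay at the threshold on all arrays, between 5.07 and 5.12, and was the 1 tested member probe set that was higher on both Myc-depleted arrays, by 0.03. The intervals of these genes still allow a change of about the size seen for Sass6.

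**Figure D2:**
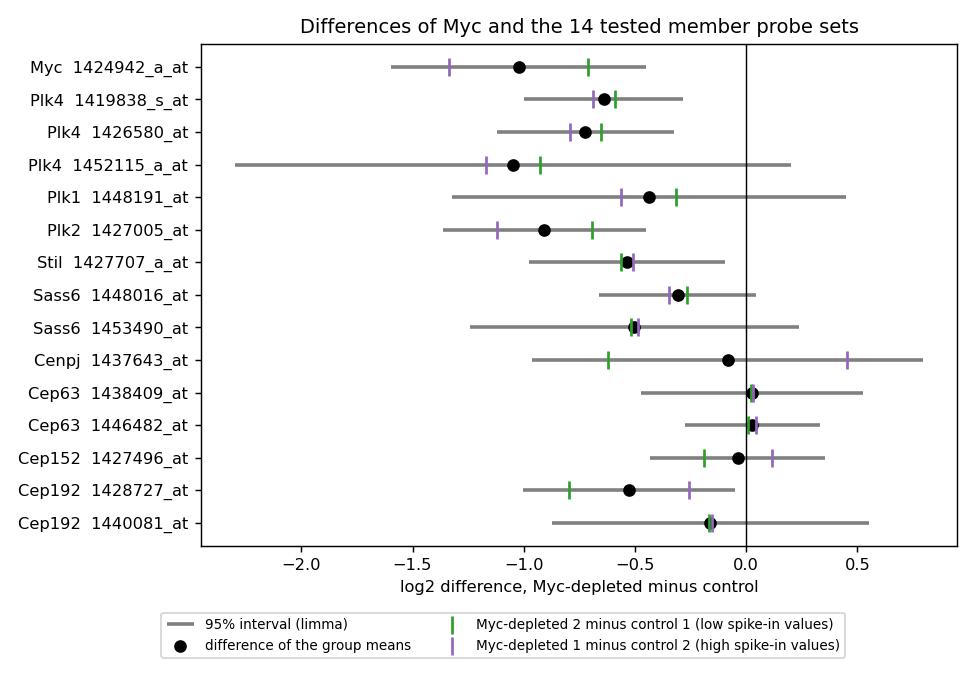
Log2 difference, Myc-depleted minus control, of Myc and the 14 tested member probe sets: black points are differences of the means of 2 arrays each, grey bars are 95% intervals in limma, and green and purple marks are the low and the high pair. The marks of the 3 Plk4 probe sets, Plk2, Stil and Sass6 all lie below 0, while those of Cenpj lie at -0.62 and 0.45.

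Counted over the 14 tested probe sets, 12 had a negative difference. The groups did not overlap and Myc-depleted was lower for 8 of the 14, against 18.5% of all probe sets tested. In limma 0 were called, as were 0% of all probe sets, while 5 were lower at an unadjusted p under 0.05 (2 of Plk4 and 1 each of Plk2, Stil and Cep192), against 4.46% of all probe sets. Over 2-fold lower at such a p in limma were 0 of the 14, against 0.518% of all probe sets. The ANOVA named in the methods of the study also called 0 after adjustment and gave 3 at an unadjusted p under 0.05 (2 of Plk4 and that of Plk2). The share of all probe sets at such a p was not counted for the ANOVA. The count of 5 was 1 without control replicate 1 and 3 without control replicate 2. By genes, 5 of 9 leading probe sets were lower without overlap (Plk4, Plk2, Stil, Sass6 and Cep192), against 20.8% of all genes. A negative difference was found in 8 of 9 genes, against 46.0% of all genes, and 4 of 9 were lower at an unadjusted p under 0.05, against 5.23%. The median over the 9 genes was -0.44, against 0.02 over all genes tested, and became -0.26 without control replicate 1. It stood at -0.56 in the low pair and -0.35 in the high pair. The 3 probe sets of Plk4 read 1 gene and are not separate evidence.

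The spread within a group often ran the same way in both groups. Of the 14 probe sets, 7 were lower and 3 were higher on the array with high spike-in values in both groups, and 4 differed in sign. The share of all probe sets was not counted. Over all probe sets tested, the deviations of same-numbered arrays had a correlation of -0.77. Such likeness was thus general on these arrays and is not particular to the members. Plk1 was lower on that array by 0.47 in control and by 0.71 in Myc-depleted cells, which is larger than its difference between the groups. Stil and the leading probe set of Cep63 were higher on it in both groups, by 0.20 and 0.26 for Stil. What part labelling had in these differences was not tested.

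**Figure D3:**
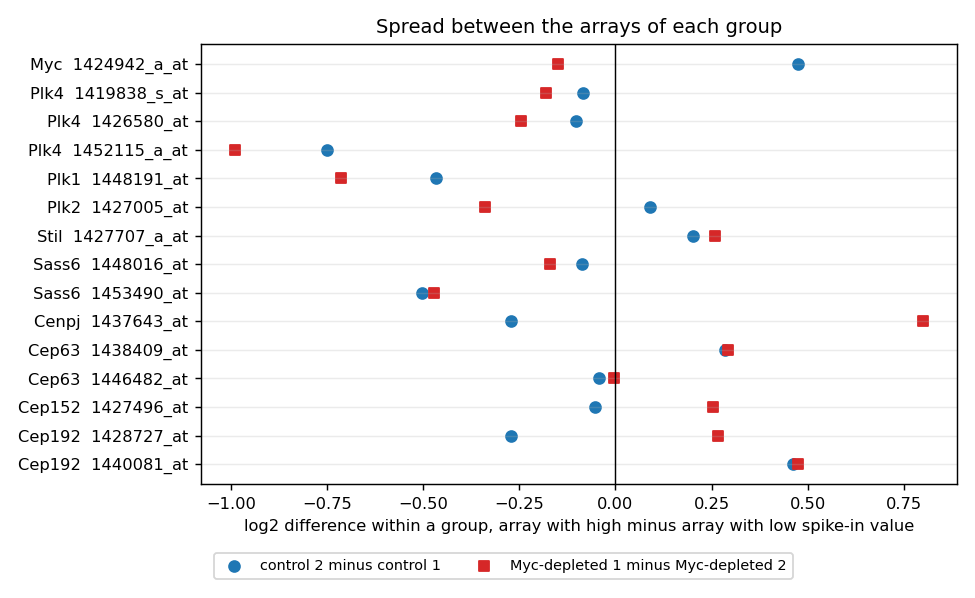
Log2 difference between the arrays of each group for Myc and the 14 tested member probe sets, as control 2 minus control 1 (blue) and Myc-depleted 1 minus Myc-depleted 2 (red squares), so that negative values are lower on the array with high spike-in values. Plk4 1452115_a_at lies farthest left in both groups at -0.75 and -0.99, and Plk4 1419838_s_at lies at -0.08 and -0.18.

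With the spike-in difference as a covariate, limma called 5 of the 14 member probe sets, all lower: the 3 of Plk4, that of Plk2 and that of Stil, with adjusted p between 0.00830 and 0.0263. That fit called 10.4% of all probe sets tested and has 1 residual degree of freedom, so its error rests on very little. The difference of Plk4 1419838_s_at was -0.63 in it and that of Myc -1.03.

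Other centriole genes outside the members, taken from lists of centriole assembly and length genes, showed no common direction. Of 35 tested, 17 were negative and 18 positive, with a median of 0.01. Without overlap 6 were lower and 3 higher, shares under the 20.8% and 26.6% of all genes. In limma 0 were called, and 3 were lower and 1 higher at an unadjusted p under 0.05. Of all genes, 5.23% were lower and 876 of 12589 higher at such a p. The lower ones were Cep295 (-0.83), Rttn (-0.41, with another probe set at -0.02) and Cep78 (-0.35). Cep295 turns new centrioles into centrosomes, Rttn is needed to build full-length centrioles, and Cep78 is a protein of the centriole wall. Cep295 read 5.63 and 5.67 in control but 5.07 and 4.58 in Myc-depleted cells, under the low-value threshold. It was tested only through its control level. The higher one was Fbxw5 (0.39), the ubiquitin ligase subunit that marks Sass6 for degradation. It read 6.97 and 7.10 in control and 7.45 and 7.40 in Myc-depleted cells.

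The pericentriolar material is the protein coat from which centrosomes grow microtubules. A list of its genes, with gamma-tubulin, augmin and other centrosome genes, was more often lower than higher. Of 31 tested, 24 were negative (46.0% of all genes), with a median of -0.18. Without overlap 11 were lower and 3 higher, against 20.8% and 26.6% of all genes. None was called in limma, and 3 were lower (5.23% of all genes) and 1 higher (876 of 12589 genes) at an unadjusted p under 0.05. Haus6, a subunit of the augmin complex that amplifies spindle microtubules, read 9.13 and 9.02 in control and 8.16 and 8.09 in Myc-depleted cells, a difference of -0.95 (SE 0.12, limma adjusted p = 0.263). The other probe set of Haus6 differed by -0.58. Haus4, of the same complex, differed by -0.32. Haus1, Haus3, Haus5 and Haus7 were also lower without overlap, while the groups of Haus2 and Haus8 overlapped. Much of the lower count thus came from augmin genes. Cep57, which helps to hold centrioles together, differed by -0.49. Pcnt, of the pericentriolar material, differed by 0.17 with overlapping groups. Ninl, a ninein-like microtubule anchor, differed by 0.69. The 68 tested genes of the Polo-like kinase, centriole and pericentriolar lists together had a median of -0.12.

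Cell cycle genes that time centriole duplication had a negative difference in 12 of 15 cases (46.0% of all genes), with a median of -0.15 and 0 called in limma. Without overlap 8 were lower and 1 higher, against 20.8% and 26.6% of all genes. At an unadjusted p under 0.05 in limma 3 were lower, against 5.23% of all genes. Ccne2, a cyclin that with Cdk2 permits duplication, read 9.97 and 9.75 in control and 9.10 and 9.22 in Myc-depleted cells, a difference of -0.70. Espl1, the separase that disengages centrioles after mitosis, differed by -0.48, Ccna2 by -0.47 and the transcription factor Mybl2, which drives genes of G2 and M phase, by -1.01, with its other probe set at -0.30. Cdk2 stood on the other side, at 0.26. The 8 tested genes that respond to lost or extra centrosomes lay between -0.25 (Trim37) and 0.21 (Mdm2) by leading probe sets, and 0 of them reached an unadjusted p under 0.05 or was called in limma. The other probe sets of these genes reached -0.36 for Trim37 and -0.32 for Mdm2, but 0.39 for Trp53bp1. Trp53 had no probe set under its symbol alone. Of the multiciliated cell programme 3 of 8 genes with a probe set were tested (Rfx3 0.41 with another probe set at -0.16, Rfx2 0.11 and Ccno 0.10), while Foxj1 and Deup1, which define that programme, lay under the threshold.

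General proliferation genes stood lower together with the members. All 22 of them were negative and 18 were lower without overlap, against 46.0% and 20.8% of all genes. Their median was -0.52, or -0.32 without Myc-depleted replicate 1, and their summed log2 levels were 230 and 224 on the control and 213 and 219 on the Myc-depleted arrays. Smallest in p were the spindle checkpoint kinase Bub1 (-0.92), the topoisomerase Top2a (-0.68) and the replicative helicase subunits Mcm3 (-0.55) and Mcm6 (-0.51), of which other probe sets reached -0.18 and -0.14. None of the 22 was called in limma, and 7 were lower at an unadjusted p under 0.05, against 5.23% of all genes. Among the members, Plk2 and Plk4 lay below this median and Stil and Cep192 close to it, while Cenpj, Cep63 and Cep152 lay far above it. The part of the share of dividing cells in the differences of Plk4, Stil and Cep192 was not tested.

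**Figure D4:**
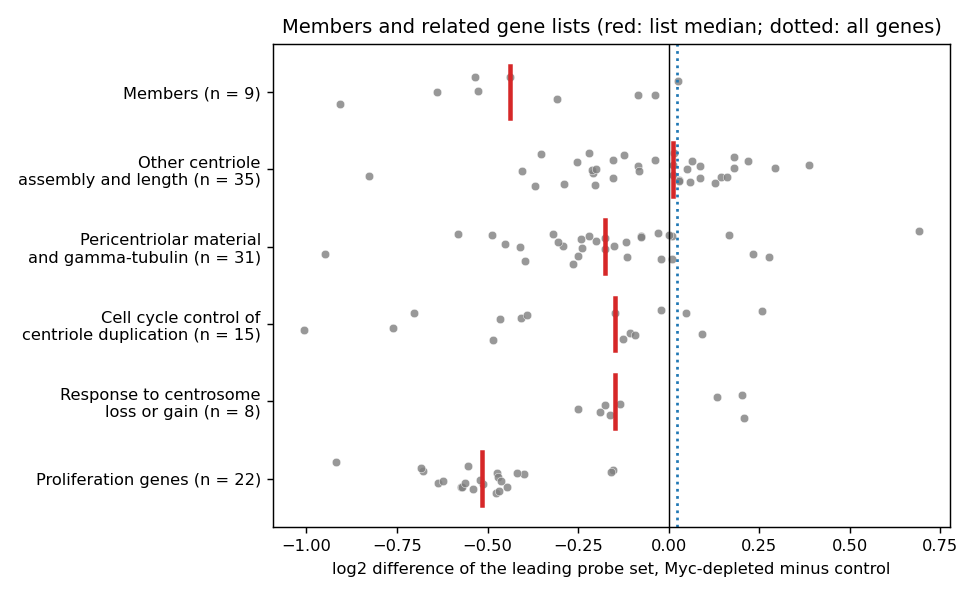
Log2 difference, Myc-depleted minus control, of the leading probe set of each tested gene (grey points) in the members and in 5 related lists, with the median of each list in red and that of all genes as a dotted line at 0.02. The medians lie at -0.44 for the members, 0.01 for other centriole assembly genes, -0.18 for the pericentriolar and gamma-tubulin list and -0.52 for proliferation genes.

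The genes whose pattern over the 4 arrays was nearest to that of Plk4 were Pdia5, Nampt, Pola2, Ppp1r14b and Tex30. The measure was the root mean square difference of the log2 values after each gene was centred on its own mean, and it ran from 0.0086 for Pdia5 to 0.031 for Tex30. Their differences lay between -0.67 and -0.63, close to the -0.64 of Plk4. Of the members, Plk2 came nearest, at rank 496 of the other genes (0.157), followed by Sass6 at rank 579 and Cep192 at rank 729. Myc stood at rank 2590. With 4 arrays many genes have nearly equal patterns, so likeness is given as a description.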

How the data were processed

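Messenger RNA of 4 samples, 2 control and 2 Myc-depleted, was hybridised to 1 array each, and groups and replicate numbers were taken from the sample titles. The deposited log2 values were made by the authors in Partek Genomics Suite 6.4 from Affymetrix scanner files. The methods of the study name Robust Multichip Average, while the submitters' processing notes name GCRMA, and which of them applies was not settled. It matters most for dim probe sets. No build is named for the deposited values, and coordinates are those of the RefSeq promoter table.

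The 64 control probe sets were left out, and probe sets with a mean under the 40th percentile were not tested. Symbols came from the platform annotation, with 34945 probe sets of 1 symbol, 932 of several and 9160 of none. The leading probe set of a gene was its tested one with the highest mean. Groups were compared with limma 3.58.1 in R 4.3.3 (lmFit, eBayes; 2 residual and 2.02 prior degrees of freedom), after the script was tested on simulated data. The number of arrays limits the precision. Alternatives covered the filter, scaling, a floor, the variance model, the ANOVA of the methods, the replicate block, the spike-in covariate, the probe sets averaged per gene and each array left out. Promoters came from RefSeq, with those of 1 whole chromosome left out of the motif search. The members and lists were chosen with earlier results of these data known. Named were Myc, each member with every probe set, up to 4 genes of smallest p from each other list, and the 5 genes nearest to Plk4. Cdk2, Pcnt, the further Haus genes and the markers named were picked after their values were seen.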

Additional observations from a re-analysis of the deposited data

How the results depend on the processing

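The differences of Myc and of the leading Plk4 probe set kept their sign under every alternative run, and were called in none but the fit with the spike-in covariate, where they were -1.03 and -0.63 (limma adjusted p = 0.0216 and 0.0208). Over the alternatives the adjusted p of both reached 0.999986, with the replicate block. Leaving out 1 array gave -1.26 to -0.79 for Myc and -0.73 to -0.55 for Plk4, and averaging the 3 Plk4 probe sets gave -0.80. The 0 member probe sets called became 5 with that covariate and stayed 0 in all other fits. The 5 probe sets lower at an unadjusted p under 0.05 became 3 with the methods' ANOVA, 3 with the replicate block and 9 with the spike-in covariate. The share of all probe sets at such a p was not counted for these fits, so the changes in count are no result about the members. The covariate fit called 10.4% of all probe sets even after adjustment. Same-numbered arrays deviated in opposite directions (correlation -0.77 across probe sets), so the number does not pair them, and the block changed no call. With the crossed pairing, chosen after seeing the data, limma called 21 of all probe sets and 0 member probe sets. At an unadjusted p under 0.05 in that fit, 9 member probe sets were lower, of Plk4, Plk1, Plk2, Stil, Sass6 and Cep192. The share of all probe sets at such a p was not counted for it.

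The median over member genes was -0.37 with the covariate and -0.48 to -0.26 without 1 array each. That over other centriole and centrosome genes was -0.10 with quantile normalization, -0.099 with the floor and -0.10 to -0.067 without 1 array each, and that over proliferation genes -0.69 to -0.32. The sign turned for Cep63 1438409_at with the covariate (-0.0045) and, on leaving out 1 array, for Cenpj without control replicate 1 or Myc-depleted replicate 2 (range over the 4 arrays -0.48 to 0.32), Cep63 1438409_at without control replicate 1 or Myc-depleted replicate 1 (-0.12 to 0.17), Cep152 without Myc-depleted replicate 2 (-0.16 to 0.089) and Cep192 1440081_at without control replicate 2 or Myc-depleted replicate 2 (-0.40 to 0.077). The cause was not tested. No other member probe set changed sign. Scaling moved the median of all genes by at most 0.0080. Dim probe sets, such as those of Cep135, bound what the arrays can show.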
